A study of Homo sapiens with 6 samples.

Results

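The genes described here encode the enzymes with which a cell makes serine, glycine, asparagine and proline for itself, together with the mitochondrial folate enzymes that carry the carbon units released from serine. They are PHGDH, PSAT1 and PSPH for serine, SHMT1, SHMT2, MTHFD2 and ALDH1L2 for glycine and folate-bound carbon, ASNS for asparagine, and PYCR1 and ALDH18A1 for proline. These 10 genes, of the 33007 in the deposited table, were found by their symbols. They were chosen by an earlier reading of the same comparison between knockdown and control, so their values are given as a description without a test. The cells were LM3, an established human hepatocellular carcinoma (HCC) line. The control group held 3 samples (replicates 1 to 3) with a vector control, and the knockdown group held 3 samples in which the zinc finger protein ZNF706 was stably depleted by a short hairpin RNA delivered with a lentivirus and selected with puromycin. The study used more than 1 hairpin, and the labels do not say which was sequenced. No treatment or time point was given. RNA-seq reads counted per gene totalled 62684076, 64713764 and 63054445 in control replicates 1 to 3 and 68548419, 65861994 and 69057423 in knockdown replicates 1 to 3, so that every knockdown sample was deeper than every control sample.

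Serine is made from a glycolytic intermediate, phosphoglycerate, in the steps catalysed by PHGDH, PSAT1 and PSPH in that order. Serine hydroxymethyltransferases then turn serine into glycine and pass a carbon unit to folate, which is used to build nucleotides and, in mitochondria, to make NADPH. ASNS makes asparagine from aspartate and glutamine, while ALDH18A1 and the PYCR enzymes make proline from glutamate. Many of these genes are known targets of ATF4, the transcription factor that cells use to respond to a shortage of amino acids.

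The labels were checked first. ZNF706 (ENSG00000120963) was covered by 3211, 3504 and 3357 reads in control replicates 1 to 3 and by 2350, 2068 and 2298 reads in knockdown replicates 1 to 3. In CPM, that is counts scaled to a common library size, after TMM scaling, which corrects for differences in composition, its level went from 53.9 ± 1.76 (SD, n = 3) to 32.4 ± 1.39 (SD, n = 3). The log2 fold change was -0.73 (SE 0.0505, adjusted p = 3.7e-05 by edgeR's quasi-likelihood test), and the groups did not overlap. The cell type was checked as well. Of 5 epithelial markers, KRT18 stood at 271 FPKM in control and 261 FPKM in knockdown and KRT8 at 193 FPKM in control (FPKM is the level per gene length and library size), while KRT19, EPCAM and CDH1 were under 1 FPKM in every sample. Liver markers were low. The 12 hepatocyte genes summed to 5.54, 10.6 and 12.1 FPKM in control and to 4.58, 4.81 and 4.18 FPKM in knockdown, and the most abundant of them, ALB, stood at 2.63 and 1.71 FPKM. Of these 12 genes, 8 were under 1 FPKM in every sample and 2 fell, namely APOB (adjusted p = 0.021) and SERPINA1 (adjusted p = 0.0034). The hepatocyte sum was thus lower in every knockdown sample than in every control sample. The immune list summed to 10.7, 10.5 and 11.1 FPKM in control and to 16.8, 18.5 and 16.9 FPKM in knockdown. It was carried by CD68 (10.6 and 17.1 FPKM), which rose by 0.64 on the log2 scale (adjusted p = 0.00011), with the pan-leukocyte marker PTPRC at most 0.01 FPKM in any sample. Of 6 fibroblast genes, 5 were tested, of which 2 rose and 3 did not pass, with a median log2 fold change of -0.04. The most abundant was COL1A1 at 7.05 FPKM in control and 8.40 FPKM in knockdown, which rose by 0.20 on the log2 scale (adjusted p = 0.0023). PDGFRB, at 0.653 and 1.08 FPKM, rose by 0.68 (adjusted p = 0.003). The 3 that did not pass had negative log2 fold changes (COL3A1 -2.04, ACTA2 -0.09 and DCN -0.04). Of the endothelial genes, 2 were tested. The most abundant, CDH5, fell by 0.70 on the log2 scale (adjusted p = 0.0014), from 1.25 to 0.793 FPKM. PECAM1 went the other way, from 0.667 to 0.77 FPKM (0.15 on the log2 scale), and did not pass. The part of these markers in the values below was not tested. In bulk RNA, fewer cells with a transcript and less transcript per cell cannot be told apart.

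Across the 18390 genes with enough counts to test, 2286 (12.4%) were lower and 1906 (10.4%) were higher in the knockdown at an adjusted p under 0.05. Scaling by library size alone gave 1518 lower and 2742 higher genes. The groups did not overlap, meaning that all values of one group lay beyond all values of the other, for 39.4% of the tested genes. All of the 10 enzymes were tested, with between 1785 and 18357 counts in a sample. Of these, 5 (PHGDH, ASNS, ALDH1L2, MTHFD2 and SHMT2) passed the threshold as lower, 0 as higher and 5 did not pass. The groups did not overlap for 6 of them, 5 lower and 1 higher. Since the genes were chosen by this comparison, nothing was read from these counts. The number passing as lower was 3 without control replicate 2 and 3 without knockdown replicate 1. Over 14 alternative fits, PHGDH and ASNS passed in 14, MTHFD2 in 13, ALDH1L2 in 11 and SHMT2 in 7. The median log2 fold change of the 10 enzymes was -0.12, against 0.01 over all tested genes. Summed over the 10 enzymes, the level was 1174, 1229 and 1208 CPM in control and 1015, 1050 and 1068 CPM in knockdown. PHGDH alone made up 66.3 CPM of the difference of 160 CPM between the means, and MTHFD2 39.4 CPM.

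**Figure D1:**
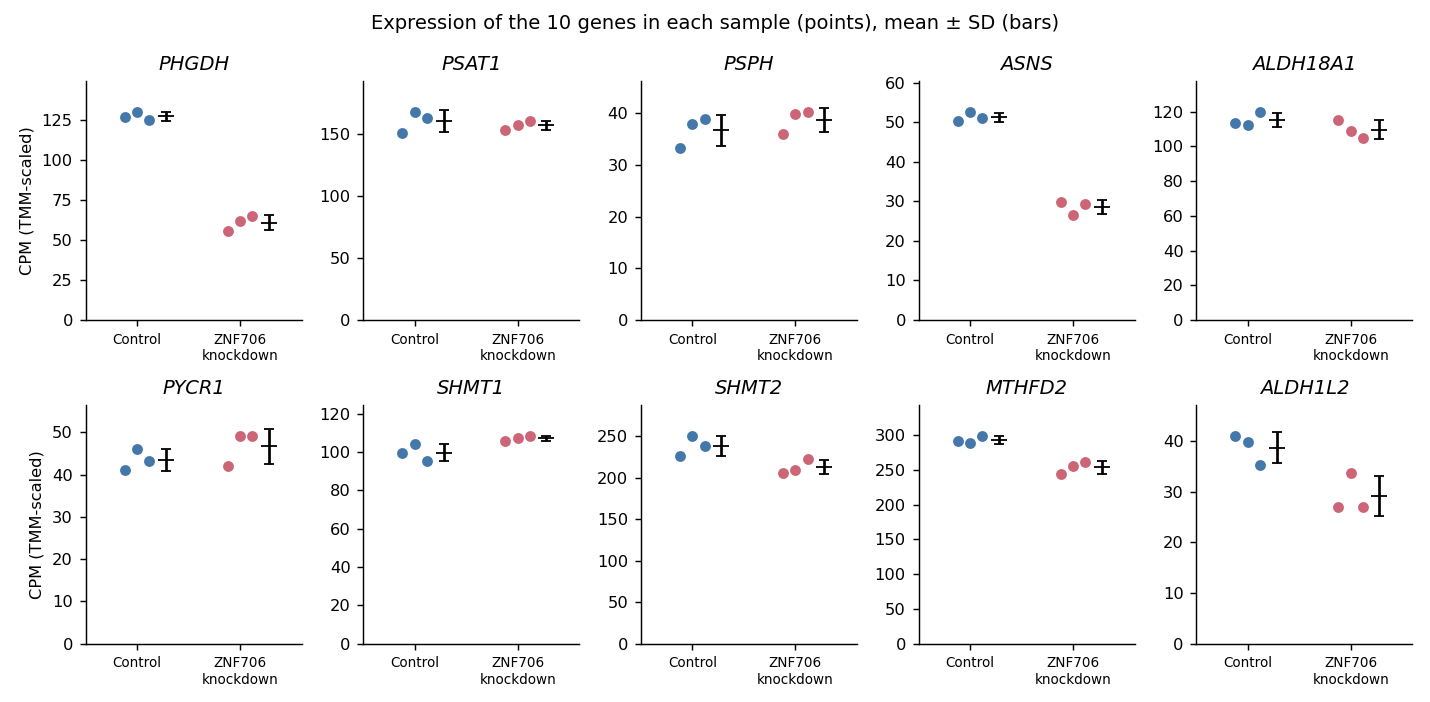
CPM after TMM scaling of each of the 10 enzymes, one panel per gene with its own axis from 0. Points are the 3 control (blue) and 3 knockdown (red) samples, and the bar beside them is the mean with its SD; PHGDH and ASNS stand apart between the groups, while the points of PSAT1, PSPH, PYCR1 and ALDH18A1 overlap.

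PHGDH (ENSG00000092621, GRCh38 chr1:119648411-119744218, plus strand) encodes the dehydrogenase that opens the serine pathway. Its level was 127, 130 and 125 CPM in control replicates 1 to 3 and 55.6, 61.6 and 64.7 CPM in knockdown replicates 1 to 3. The knockdown samples thus held 43.8%, 48.5% and 51.0% of the control mean, with a wide gap between the groups. The log2 fold change was -1.07 (SE 0.0532). It was the 286th lowest of the 18390 tested genes by log2 fold change, and the 6th lowest of the 9474 with a mean of at least 10 CPM. Leaving out each sample in turn moved the log2 fold change between -1.12 and -1.01.

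The next enzymes of the same pathway showed no such gap. PSAT1 (ENSG00000135069, chr9:78297125-78330093, plus strand), the aminotransferase of the second step, stood at 151, 167 and 162 CPM in control and at 153, 157 and 160 CPM in knockdown. Every knockdown value of PSAT1 lay within the range of the controls, and the log2 fold change was -0.03 (SE 0.0433). Its sign turned in 3 of 14 alternatives, with 0.02 under library size scaling, 0.02 with limma on FPKM and 0.05 with an offset for GC content. PSPH (ENSG00000146733, chr7:56011051-56051467, minus strand), the phosphatase of the last step, was at 33.4, 37.9 and 38.8 CPM in control and at 36.1, 39.9 and 40.2 CPM in knockdown. These groups overlapped too, with a log2 fold change of 0.08 (SE 0.0701) that was 0.01 without control replicate 1 and at most 0.13 over the alternatives. The pseudogene PSPHP1 had counts equal to 12.7% of those of PSPH, so some reads may have been shared between this pair.

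Ratios taken within a sample need no scaling between libraries. For each count on PSAT1 there were 0.840, 0.775 and 0.767 counts on PHGDH in control and 0.363, 0.393 and 0.405 in knockdown. The ratio of PSAT1 to PSPH was 4.52, 4.41 and 4.18 in control and 4.25, 3.93 and 3.97 in knockdown, and there the groups overlapped. For each count on PSPH there were 3.80, 3.42 and 3.21 counts on PHGDH in control and 1.54, 1.54 and 1.61 in knockdown. Within the serine pathway the groups were thus separate for the first enzyme set against either of the later ones.

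**Figure D2:**
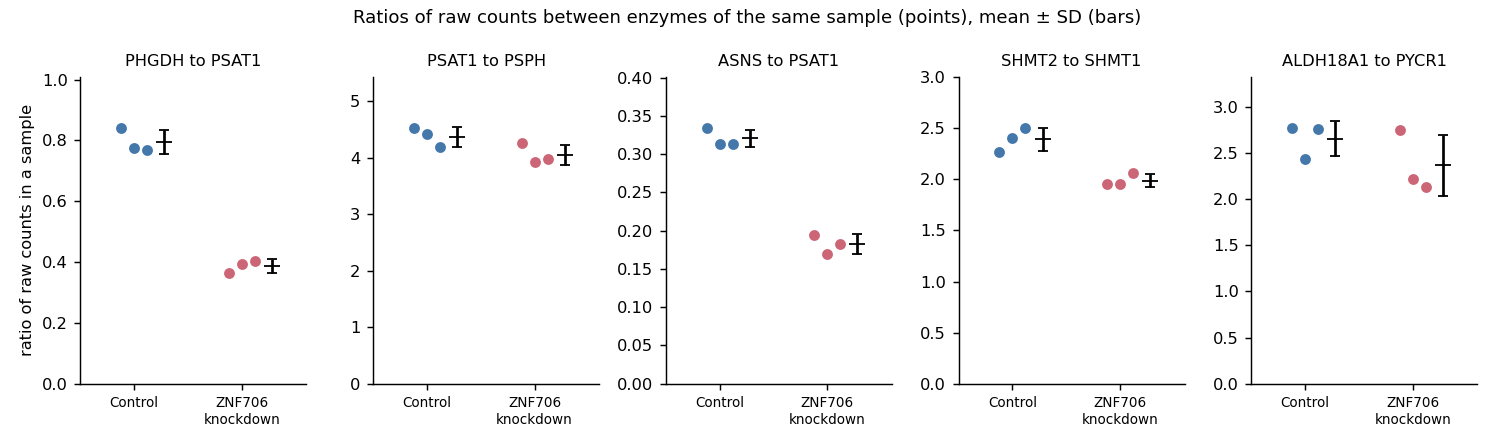
Ratio of raw counts between pairs of enzymes in the same sample, one panel per pair with its own axis from 0. Points are samples (control blue, knockdown red) and bars are the mean with its SD; the PHGDH to PSAT1 ratio was 0.767 to 0.840 in control and 0.363 to 0.405 in knockdown, whereas the PSAT1 to PSPH and ALDH18A1 to PYCR1 ratios overlapped.

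Promoter sequence was taken from RefSeq (GRCh38.p14), which held windows from 250 bases before to 50 bases after the start for 6 of the 10 genes (PHGDH, PSAT1, SHMT1, MTHFD2, ASNS and ALDH18A1). PSPH, SHMT2, ALDH1L2 and PYCR1 had no entry. The letters CCAAT, searched on both strands, were in 4 of these 6 promoters (PHGDH, PSAT1, SHMT1 and MTHFD2) and in 39.7% of all 27305 genes with a window. The stretches of PHGDH (chr1:119711851-119711880, plus strand, bases -83 to -54 from the start) and of PSAT1 (chr9:78296875-78297124, plus strand, the whole 250 bases before the start) are shown because these neighbours in the pathway differed in response while both carry the same letters. CCAAT is in capitals.
PHGDH: gagtatttccgtCCAATcaaaaggagactg
PSAT1: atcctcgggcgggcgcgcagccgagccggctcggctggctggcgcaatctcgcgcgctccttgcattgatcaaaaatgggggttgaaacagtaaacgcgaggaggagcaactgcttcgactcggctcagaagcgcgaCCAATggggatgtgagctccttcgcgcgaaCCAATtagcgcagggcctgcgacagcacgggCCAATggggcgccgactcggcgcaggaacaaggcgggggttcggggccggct
PSAT1 held CCAAT 3 times before its start. The PHGDH stretch lies before the RefSeq start but inside the span that the deposited table gives the gene. The letters are a description of these windows, and binding to them was not measured here.

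ASNS (ENSG00000070669, chr7:97851677-97872542, minus strand), the asparagine synthetase, was the other enzyme with a large difference. Its level was 50.3, 52.5 and 51.1 CPM in control and 29.9, 26.6 and 29.3 CPM in knockdown. The knockdown samples held 58.3%, 51.9% and 57.2% of the control mean, and the groups lay far apart. The log2 fold change was -0.84 (SE 0.0558), the 21st lowest among the tested genes with a mean of at least 10 CPM, and it stayed between -0.87 and -0.79 over 14 alternative fits. Per count on PSAT1 there were 0.334, 0.314 and 0.314 counts on ASNS in control and 0.195, 0.170 and 0.183 in knockdown, again without overlap. A transcript on the same strand, AC079781, overlaps ASNS and had 5.99% as many counts, so a small part of either value could belong to the other.

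The composite letters TGATGNAA, the core bound by ATF4 with a C/EBP partner, were searched on both strands of the 6 promoters. Only ASNS held them, as TGATGAAAC, which also has the longer form TGATGNAAC, starting 68 bases before 1 of the 2 RefSeq starts of this gene. The window of its other start did not hold them. Of all 27305 genes, 4.46% held the shorter core and 0.978% the form ending in C. The form ending in T (TGATGNAAT, 1.22% of genes) was in 0 of the 6. CACGTG, an E-box, was in ALDH18A1 alone and in 8.77% of all genes. The stretches below (ASNS at chr7:97872458-97872487 and ALDH18A1 at chr10:95656830-95656859, both minus strand) are shown because ASNS was among the enzymes with a large difference and ALDH18A1 among those with little; the capitals mark the matched letters.
ASNS: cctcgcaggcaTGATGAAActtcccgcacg
ALDH18A1: gggctggcccgcCACGTGgagcgctggctt
The ASNS stretch lies inside the deposited span of the gene and the ALDH18A1 stretch upstream of it. The PHGDH window had none of the ATF4 core letters.

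The proline enzymes differed little. ALDH18A1 (ENSG00000059573, chr10:95605941-95656711, minus strand), which starts the route from glutamate, stood at 113, 113 and 120 CPM in control and at 115, 109 and 105 CPM in knockdown. PYCR1 (ENSG00000183010, chr17:81932384-81941079, minus strand), a mitochondrial enzyme of the last step, stood at 41.0, 46.1 and 43.3 CPM in control and at 41.9, 49.2 and 49.1 CPM in knockdown. The groups overlapped for both, with log2 fold changes of -0.07 (SE 0.0446) for ALDH18A1 and 0.11 (SE 0.0702) for PYCR1. Over the alternatives these ranged from -0.11 (without knockdown replicate 1) to -0.02 (library size scaling) for ALDH18A1, and from 0.03 (GC offset) to 0.18 (without knockdown replicate 1) for PYCR1.

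Of the mitochondrial glycine and folate enzymes, all 3 had lower CPM in every knockdown sample than in every control sample, by less than PHGDH and ASNS. Among all tested genes 39.4% had groups that did not overlap, and as these enzymes were chosen by this comparison, nothing was read from it. MTHFD2 (ENSG00000065911, chr2:74198610-74215298, plus strand) oxidises the carbon unit carried by folate and is known as an enzyme of embryonic and tumour cells. It was at 292, 289 and 299 CPM in control and at 244, 256 and 262 CPM in knockdown, with a mean of 293 ± 5.29 CPM (SD, n = 3) against 254 ± 8.92 CPM (SD, n = 3) and a log2 fold change of -0.21 (SE 0.0358). With an offset for the GC content of each gene, the log2 fold change of MTHFD2 was -0.12, which did not pass the threshold. SHMT2 (ENSG00000182199, chr12:57229573-57234935, plus strand), the mitochondrial hydroxymethyltransferase, was at 226, 251 and 238 CPM in control and at 206, 210 and 223 CPM in knockdown. Its log2 fold change was -0.16 (SE 0.0458), passing the threshold in 7 of 14 alternatives. The highest knockdown sample came close to the lowest control sample. In FPKM the SHMT2 groups overlapped, with knockdown replicate 3 at 43.2 and control replicate 1 at 42.9 FPKM.

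ALDH1L2 (ENSG00000136010, chr12:105019784-105084458, minus strand), which oxidises formyltetrahydrofolate in mitochondria and yields NADPH, was at 41.0, 39.8 and 35.3 CPM in the control samples. Its knockdown samples were at 27.0, 33.8 and 26.9 CPM, so that replicate 2 lay near the lowest control while the other 2 were well below it. The log2 fold change was -0.41 (SE 0.0953) and became -0.52 without knockdown replicate 2. This gene had the widest spread of the 10 in the knockdown group, a coefficient of variation of 13.5%. C12orf45 overlaps it on the opposite strand with 71.1% as many counts, and since the sources used here do not say whether reads were counted by strand, part of the value may belong to that gene.

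SHMT1 (ENSG00000176974, chr17:18327860-18363563, minus strand), the cytosolic counterpart of SHMT2, lay the other way. It was at 99.5, 105 and 95.5 CPM in control and at 106, 108 and 109 CPM in knockdown, with every knockdown value just above every control value and a log2 fold change of 0.10 (SE 0.0403), or 0.16 under library size scaling. The gene overlaps SMCR8 on the opposite strand, which had 119% as many counts, so its level is uncertain. Counts on SHMT2 per count on SHMT1 were 2.27, 2.40 and 2.50 in control and 1.95, 1.95 and 2.06 in knockdown, and these groups did not overlap.

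Levels of different genes can be set side by side only per length, for which the deposited FPKM values were used. The length behind each FPKM value is not given in the sources used here, so the order below holds for these values only. In control, PSAT1 was the most abundant of the 10 at 62.6 ± 2.98 FPKM (SD, n = 3), followed by MTHFD2 at 52.4, SHMT2 at 44.7, ALDH18A1 at 26.4, PYCR1 at 13.0, PHGDH at 11.9, SHMT1 at 11.8, PSPH at 11.4, ASNS at 9.02 and ALDH1L2 at 3.51 FPKM, with SDs between 0.188 and 2.98 FPKM. The ranges of PHGDH, SHMT1 and PSPH overlapped and gave no order among them, and that of PYCR1 overlapped SHMT1. In knockdown the first 4 places were unchanged, from PSAT1 at 63.3 ± 1.31 FPKM (SD, n = 3) to ALDH18A1 at 26.0 FPKM, and PYCR1 at 14.4 FPKM again overlapped SHMT1. PHGDH was now at 5.88 ± 0.444 FPKM, below SHMT1 (13.1 FPKM) and PSPH (12.5 FPKM) and overlapping ASNS at 5.20 FPKM. ALDH1L2 was still lowest at 2.74 FPKM. In CPM, which is not per length, knockdown PHGDH (60.6) stood below SHMT1 (107) but above PSPH (38.7) and ASNS (28.6). The longest annotated transcripts of PHGDH, PSPH and ASNS are 3180, 2178 and 2356 bases, so the place of PHGDH depends on the length used. In the deposited FPKM the first enzyme of serine synthesis thus stood below the second in both groups. The mean ratio of PHGDH to PSAT1 was 0.191 by FPKM and 0.794 by counts in control. In knockdown it was 0.0928 by FPKM and 0.387 by counts. The longest annotated transcripts are 3180 bases for PHGDH and 2188 for PSAT1, so the size of the FPKM gap depends on the length used.

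**Figure D3:**
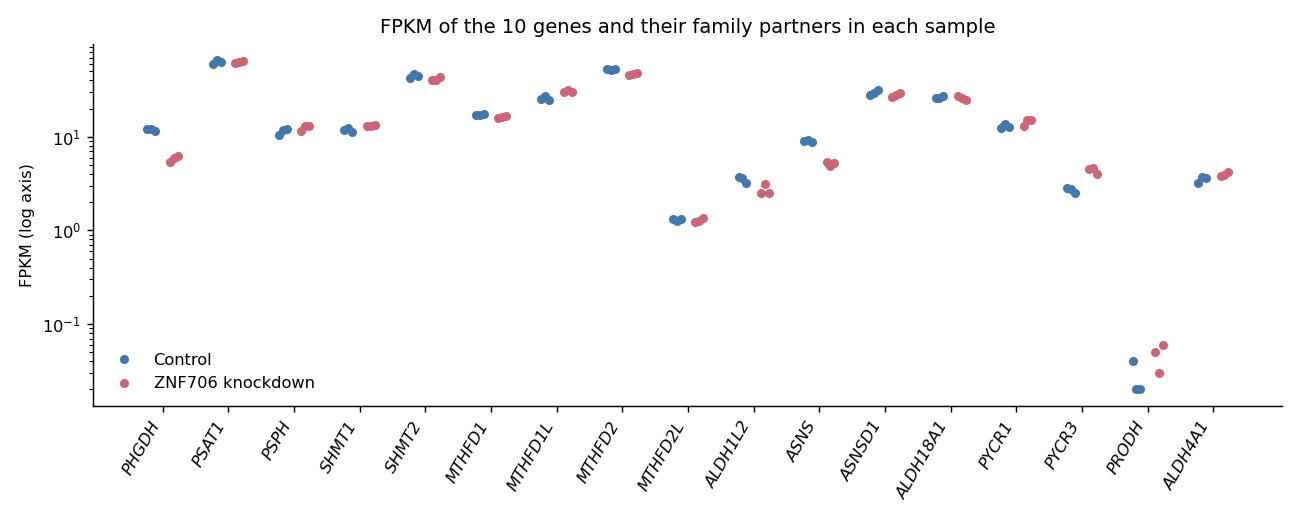
FPKM of the 10 enzymes and of 7 family partners on a log axis, each point a sample (control blue, knockdown red). PSAT1, MTHFD2 and SHMT2 were highest in both groups, PHGDH and ASNS were lower in knockdown, PYCR3 was higher, and PRODH, which degrades proline, lay below 0.1 FPKM.

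Partners from the same enzyme families were then compared with edgeR, adjusted over the 18390 genes. All but ALDH1L1, which had too few counts, were tested. In the proline pathway PYCR3, a cytosolic enzyme of the last step, rose from 12.9, 12.7 and 11.7 CPM to 20.0, 20.3 and 17.8 CPM. Its groups lay apart, with a log2 fold change of 0.64 (SE 0.0874, adjusted p = 0.00088). The proline-degrading genes PRODH (0.72, adjusted p = 0.3, at most 46 counts in a sample) and ALDH4A1 (0.12, adjusted p = 0.42) did not pass the threshold. ASNSD1, which resembles ASNS in part of its sequence, gave a log2 fold change of -0.13 and an adjusted p = 0.14.

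Among the folate enzymes that work beside MTHFD2, MTHFD1L, the mitochondrial enzyme that releases formate, rose from 146, 157 and 147 CPM to 169, 177 and 171 CPM. Its log2 fold change was 0.20 (SE 0.0397, adjusted p = 0.0062), opposite in sign to that of MTHFD2. The cytosolic MTHFD1 fell by 0.13 on the log2 scale (adjusted p = 0.025), a call lost in 6 of 14 alternatives. MTHFD2L, an isozyme of MTHFD2, gave a log2 fold change of -0.05 and an adjusted p = 0.71, and ALDH1L1, the cytosolic counterpart of ALDH1L2, had at most 4 counts in any sample. Of 19 other folate genes, 17 were tested, of which 5 fell, 2 rose and 10 did not pass, with a median log2 fold change of -0.03. The falls included SLC25A32, the mitochondrial folate carrier (-0.24, adjusted p = 0.0029), and SFXN1, a mitochondrial serine carrier (-0.22, adjusted p = 0.0035). SLC19A1, which brings folate into the cell, also fell (-0.21, adjusted p = 0.0068), a call lost with limma on FPKM. With the GC offset the log2 fold change of SLC25A32 was -0.14. GART, of purine synthesis, was named after its value was seen and rose by 0.10 on the log2 scale (adjusted p = 0.045). It lost its call whichever of the 6 samples was left out, so that 1 gene of this list rose in each of those fits, and limma on FPKM gave 3 falls in place of 5. Under the study's criteria (an unadjusted p under 0.05 and a log2 fold change of 0.3 or more in either direction) 0 genes of this list fell and 0 rose.

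Serine and glycine are also used for lipids and degraded by the glycine cleavage system. Of the 16 genes listed for such uses, 14 were tested, and 2 fell, 1 rose and 11 did not pass. SPTLC2, a subunit of the serine palmitoyltransferase that starts sphingolipid synthesis, fell from 61.0, 63.2 and 67.3 CPM to 39.0, 42.9 and 44.4 CPM. Its groups did not overlap, and the log2 fold change was -0.60 (SE 0.057, adjusted p = 0.00014). SERINC1 fell by 0.24 on the log2 scale (adjusted p = 0.0021), or by 0.13 with the GC offset. DLD, a subunit of glycine cleavage and of several dehydrogenases, rose by 0.14 on the log2 scale (adjusted p = 0.03), or by 0.25 with the GC offset, a call lost in 6 of 14 alternatives.

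On the supply side, 8 of 8 glycolytic genes around phosphoglycerate were tested, and 1 rose, 0 fell and 7 did not pass. The one that rose was GAPDH, by 0.11 on the log2 scale (adjusted p = 0.019), a call lost in 6 of 14 alternatives. With the GC offset GAPDH was at 0.05 (adjusted p = 0.28) and 0 of this list were called higher, whereas scaling by library size alone called 3 higher. Its median log2 fold change was 0.03. Of 11 genes for glutamine, glutamate and aspartate, the substrates of ASNS, PSAT1 and ALDH18A1, 8 were tested, with 1 lower, 1 higher and 6 not passing, while DESeq2 and the study's criteria each called 2 lower and limma on FPKM called 2 higher. The higher one was GOT2, the mitochondrial aspartate aminotransferase, which rose by 0.15 on the log2 scale (adjusted p = 0.0095). Of 9 other proline and ornithine genes, 7 were tested. PYCR3 and OAT rose and 1 fell, namely PEPD, which releases proline from peptides. OAT (0.14, adjusted p = 0.03, and 0.23 with the GC offset) lost its call in 6 and PEPD (-0.23, adjusted p = 0.04) in 8 of 14 alternatives.

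Transporters of serine, asparagine and proline moved in both directions. SLC38A2, a sodium-coupled carrier of small neutral amino acids, fell from 827, 832 and 919 CPM to 552, 515 and 545 CPM. The groups were far apart, with a log2 fold change of -0.68 (SE 0.0456, adjusted p = 3.6e-05). SLC1A5, which exchanges glutamine, serine and asparagine, fell by 0.32 on the log2 scale (adjusted p = 0.00044). SFXN2 (0.52, adjusted p = 0.01) and SFXN3 (0.24, adjusted p = 0.013), mitochondrial proteins of the sideroflexin family, rose, the latter losing its call in 4 of 14 alternatives. Of 11 listed transporters, 9 were tested, of which 3 fell, 2 rose and 4 did not pass. The number that rose was 1 without control replicate 1, without control replicate 3 or without knockdown replicate 2. All 7 tRNA ligases that load serine, glycine, asparagine and proline were tested, and GARS1, for glycine, fell by 0.16 on the log2 scale (adjusted p = 0.0076), EPRS1, for glutamate and proline, rose by 0.19 (adjusted p = 0.0019) and 5 did not pass. These ligase counts depended on the scaling, with 0 lower and 4 higher both with library size scaling and with limma on FPKM, and with 3 higher under the GC offset. GARS1 lost its call in the first 2 of these.

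ATF4 itself was at 301, 319 and 307 CPM in control and at 238, 253 and 261 CPM in knockdown. Every knockdown sample was lower, and the log2 fold change was -0.30 (SE 0.0415, adjusted p = 0.00089). Of the 12 genes of ATF4 and its partners, all were tested, and 6 fell, 0 rose and 6 did not pass, against 4 lower and 2 higher with library size scaling and 5 lower and 2 higher with limma on FPKM. The median log2 fold change was -0.22, and of all tested genes 12.4% were lower and 10.4% higher. PPP1R15A, the phosphatase subunit that ends the stress response, fell from 33.7, 32.2 and 31.9 CPM to 22.4, 18.9 and 19.5 CPM (log2 fold change -0.69, SE 0.0773, adjusted p = 0.00034). EIF2AK3, a kinase that senses stress in the endoplasmic reticulum, fell by 0.45 on the log2 scale (adjusted p = 0.0015). NUPR1 (-0.38, adjusted p = 0.021) and ATF5 (-0.31, adjusted p = 0.024) fell too, and lost their calls in 5 and 6 of 14 alternatives. The number that fell in this list was 3 without control replicate 3, and 1 gene rose with DESeq2 and without knockdown replicate 3. TRIB3, a target of ATF4 (-0.08, adjusted p = 0.16), and DDIT3, which encodes the factor CHOP (-0.28, adjusted p = 0.11), did not pass and were named after their values were seen.

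**Figure D4:**
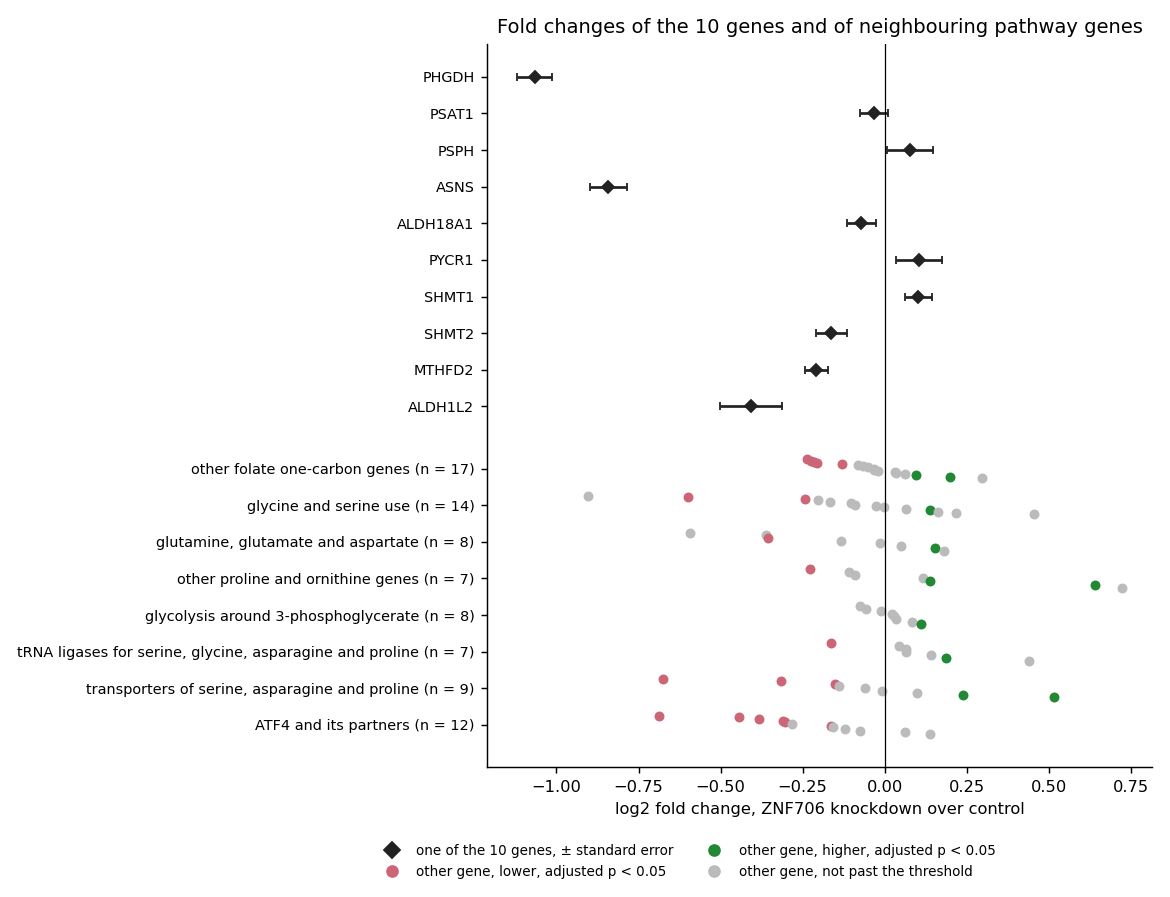
Log2 fold change of knockdown over control for the 10 enzymes (black diamonds with standard errors) and for the tested genes of 8 lists of neighbouring pathway genes (circles coloured by whether the adjusted p was under 0.05). PHGDH (-1.07) and ASNS (-0.84) lie farthest left of the 10, the tested genes of every list spread to both sides of 0, and ATF4 and its partners held 6 lower and 0 higher genes past the threshold (4 and 2 with library size scaling).

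Over all lists of neighbouring genes, 82 of 93 were tested, and 19 fell, 10 rose and 53 did not pass, where 12.4% of all tested genes were lower and 10.4% higher. Their median log2 fold change was -0.03, against 0.01 over all tested genes.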

How the data were processed

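The authors mapped RNA-seq reads of 3 vector control and 3 ZNF706-knockdown samples with HISAT2 and deposited 1 table of unnormalized counts and of FPKM values for every gene. The submitters' processing notes name FastQC, cutadapt 1.9 and GRCh38. The counting program, its use of strand and the annotation release are not given in the sources used here. Nothing says that samples of a group came from separate cultures, so p-values measure the spread between these samples, which may be technical.

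Low counts were removed (filterByExpr), libraries were scaled (TMM), and the groups were compared by the quasi-likelihood test of edgeR 4.0.16 in R 4.3.3. P-values were adjusted over 18390 genes by Benjamini-Hochberg, with a threshold of 0.05. Of 33007 genes, 1688 had no count. The fit was first tested on simulated data. A standard error (SE) is the fold change on the log2 scale, without its sign, divided by the square root of F. For a single gene, exact permutation of 3 against 3 samples cannot go below a two-sided p of 0.1. Replicates were not duplicates: the chi-square per gene was 12.8 to 22.2 within and 45.9 to 53.9 between groups.

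The enzymes and the gene lists were chosen with earlier results of these data known. Named genes are the 10 enzymes, ZNF706, ATF4, 9 family partners and, of each list, up to 4 genes with the largest absolute log2 fold change past the threshold and without overlap; some results under this rule are not reported here. Alternatives used DESeq2 1.42.0 and limma 3.58.1 (log2 of FPKM + 0.1), other scalings and filters, a GC offset, a replicate block and each sample left out. CCAAT and CACGTG were searched beside the ATF4 core.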

Additional observations from a re-analysis of the deposited data

How the results depend on the processing

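PHGDH and ASNS passed the threshold as lower in 14 of 14 alternative fits, MTHFD2 in 13 (not with the GC offset), ALDH1L2 in 11 and SHMT2 in 7. SHMT1 passed as higher in 2 (scaling by library size and limma on FPKM). The number of the 10 enzymes passing as lower, 5, became 3 with no filter and 3 with the study's criteria (p under 0.05 and a log2 fold change of 0.3 or more in either direction), and 3 to 5 with 1 sample left out. All genes called numbered 4192, and 2648 to 3424 with 1 sample left out, the lowest without knockdown replicate 2. Called genes of the neighbouring lists fell from 29 to 13 with the study's criteria. MTHFD2L turned to 0.003 with library size scaling and to 0.07 with the GC offset. The ATF4 core count of 1 became 0 for TGATGNAAT in both windows. Of 446 values of other named genes, 50 lost their call and 1 gained one. Same-numbered samples did not deviate together (correlations 0.049, -0.001 and 0.092). A replicate block called 2394 lower and 1967 higher genes, left the count of enzymes at 5 and brought ASNSD1 past the threshold. The causes were not tested.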
